A study of Mus musculus with 3 samples.

Results

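The MYC family and its partners were followed as 8 genes, Myc, Mycn, Max, Mxd1, Mxd3, Mxd4, Mxi1 and Mnt, out of the 32285 genes counted in each library. They were chosen by symbol, and all 8 were found. The material was mouse bone marrow profiled by droplet single-cell RNA sequencing with the 10x 3' v3 chemistry, with 1 library for each of 3 genotypes. The Lztr1_KO library came from Lztr1fl/fl;Mx1Cre+ marrow, the Rit1_M90I library from Rit1M90I/+;Mx1Cre+ marrow and the control library from Rit1M90I/+Mx1Cre- marrow. Every group was 8 weeks old when given 3 doses of pIpC at 12 mg/kg, which induces interferon and through it Mx1-Cre, and marrow was taken 4 weeks later. The sorted cells were live and carried none of CD3, CD11b, Gr1, B220 and Ter119, so most mature blood cells had been removed. The control carries the Rit1 allele without Cre, although it is titled wild type. Mx1-Cre acts in interferon-responsive cells of the blood and of other tissues. Cre is present in both mutant libraries and absent from the control, and its own effect cannot be told apart from the recombined alleles. The labels do not say how many mice went into a library. With 1 library per genotype no test was possible: each difference is between libraries, and the ranges in parentheses are exact 95% intervals that cover counting error only.

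MYC and MYCN are transcription factors that pair with MAX, bind E-box sequences and raise the expression of genes for ribosome production, metabolism and cell division. MXD1, MXD3, MXD4, MXI1 and MNT also pair with MAX, bind the same sequences and repress, so the balance among the partners of MAX sets the output of shared targets. In marrow, MYC and MYCN are known for their roles in the self-renewal and differentiation of stem cells, and members of the MXD family are known to be induced as cells leave the cycle. MXD3 is known as the family member that is present in proliferating cells.

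The genes lie on 8 separate loci of the mouse genome (GRCm38, GENCODE M21). Myc (ENSMUSG00000022346) is on chr15:61985391-61990374 on the plus strand. Mycn (ENSMUSG00000037169) is on chr12:12936093-12941914 and Max (ENSMUSG00000059436) on chr12:76937269-76962201, both on the minus strand. Mxd1 (ENSMUSG00000001156) is on chr6:86647042-86669161, Mxd3 (ENSMUSG00000021485) on chr13:55325168-55329823 and Mxd4 (ENSMUSG00000037235) on chr5:34173883-34187720, all on the minus strand. Mxi1 (ENSMUSG00000025025) is on chr19:53310518-53375810 and Mnt (ENSMUSG00000000282) on chr11:74830920-74845725, both on the plus strand.

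Promoter windows from 250 bases before to 50 bases after the start site were given by RefSeq (GRCm38.p6) for 7 of the 8 members, with Myc not among them. They were searched on both strands for 6 motif classes spelled by 9 letter strings, and the stretches printed were chosen after the matches had been seen. The E-box CACGTG, the site that MYC, MXD and MNT partners of MAX bind, was present in 3 of the 7 members (Max, Mxd4 and Mnt), in 7.15% of all 32851 windows and in 8 of the 24 listed MYC target genes with a window. The E2F-type letters TTTGGCGC or TTTCGCGC were found in Mycn alone among the members and in 0.813% of all windows. In Mycn they matched 183, 179 and 168 bases before the start, and the first pair overlap on opposite strands. Capitals mark these matches in the stretches below, each read 5′ to 3′ on the strand of its gene, and a match is a description and not evidence of binding. The stretches are chr12:12941957-12942059 (minus) for Mycn, chr5:34187884-34187956 (minus) for Mxd4, chr11:74830761-74830846 (plus) for Mnt and chr12:76962239-76962291 (minus) for Max.
Mycn: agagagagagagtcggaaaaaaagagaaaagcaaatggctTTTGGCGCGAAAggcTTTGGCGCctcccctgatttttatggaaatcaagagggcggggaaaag
Mxd4: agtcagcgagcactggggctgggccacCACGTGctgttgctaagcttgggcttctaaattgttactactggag
Mnt: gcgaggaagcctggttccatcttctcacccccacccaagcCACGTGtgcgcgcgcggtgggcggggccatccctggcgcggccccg
Max: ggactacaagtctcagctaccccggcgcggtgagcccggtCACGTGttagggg
Of the other strings, TTGGCGC or TTCGCGC, which overlap the longer E2F-type letters, were in 3.89% of windows and among the members in Mycn. GCGGGAA was in 4.60% of windows and in Mxd3, and TTTGAA or TTCGAA in 19.2% and in Mycn. CCAAT was in 37.4% of windows and in Mxd1 and Mxd4.

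After filtering, 2338 Lztr1_KO, 9367 Rit1_M90I and 7273 control cells remained, with a median of 9922.5 UMIs (distinct mRNA tags) in Lztr1_KO cells, 6590 in Rit1_M90I cells and 6861 in control cells. Cells were put into 22 gates by 214 marker genes, of which 213 were matched, and 77.5 to 79.7% of the cells of a library entered a gate. Every gate had at least 3 of its own markers among its 10 leading genes, and 1336 of the 14902 gated cells lay within 0.1 of a gate's limits. Libraries shared 5 to 19 cell barcodes. No member is a gate marker or a cell cycle gene used below. Lztr1 was at 6.34 CPM (5.43 to 7.35) in Lztr1_KO, 15.2 CPM (14.4 to 16.1) in Rit1_M90I and 17.3 CPM (16.3 to 18.3) in the control, and Rit1 at 11.7, 13.6 and 8.62 CPM. CPM scale the UMIs of a gene to the total UMIs of its gate or library, and 3' tags may lie outside the deleted part of Lztr1. The gates with at least 100 cells in every library were early lymphoid, monocyte, early neutrophil, early Gata2 and Apoe (early cells named by those markers), erythroid progenitor, and basophil and mast. The stem and multipotent gate, with 42 Lztr1_KO, 156 Rit1_M90I and 210 control cells, is below that size and is described as well. It and the smaller gates named below were added after their values had been seen.

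Among gates with at least 50 cells in the library, Myc was highest in the early Gata2 and Apoe gate of both mutants and the stem and multipotent gate of the control, and lowest in plasmacytoid dendritic cells of each. In the stem and multipotent gate it was at 207 CPM (162 to 262) in Lztr1_KO, 142 CPM (117 to 170) in Rit1_M90I and 226 CPM (201 to 253) in the control. In the early Gata2 and Apoe gate it was at 215, 177 and 187 CPM in the same libraries. The Rit1_M90I library was the low one in the stem gate, and the 3 intervals of the early Gata2 and Apoe gate overlapped. Early lymphoid cells had 137 CPM in Lztr1_KO, 156 CPM in Rit1_M90I and 162 CPM in the control. Erythroid progenitors had 166, 145 and 146 CPM, and early neutrophils 141, 106 and 137 CPM. Each of these gates stood above the monocytes and erythroblasts of its library. The megakaryocyte gate was in the same range, at 108 CPM (76.3 to 148) in Lztr1_KO, 166 CPM (139.7 to 197) in Rit1_M90I and 138 CPM (117 to 162) in the control. Macrophages, with 7 Lztr1_KO, 79 Rit1_M90I and 40 control cells, were at 296, 164 and 204 CPM. Monocytes were at 68.8 CPM in Lztr1_KO, 47.7 CPM in Rit1_M90I and 60.8 CPM in the control, and erythroblasts at 38.6, 48.3 and 41.8 CPM. Myc in erythroblasts was thus well below that in erythroid progenitors of the same library. Plasma cells had 24.2 CPM in Lztr1_KO, 34.7 CPM in Rit1_M90I and 24.7 CPM in the control, and plasmacytoid dendritic cells 24.5, 25.9 and 20.9 CPM. Immunoglobulin UMIs in the plasma cell total lower the CPM of each member there, as described for Max below. Over the 17 gates with at least 50 control cells, each Myc level overlapped its neighbour in the order within counting error, so neighbours in the order are not distinguished.

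Mycn reached 10 CPM in few gates. Among gates with at least 30 cells it was highest in the megakaryocyte gate, at 85.1 CPM (57.4 to 122) in Lztr1_KO, 61.5 CPM (45.8 to 80.8) in Rit1_M90I and 69.0 CPM (54.2 to 86.6) in the control, from 32, 122 and 133 cells. All 3 libraries overlapped there. In the stem and multipotent gate Mycn was at 14.8 CPM (4.81 to 34.5) in Lztr1_KO, 39.8 CPM (27.2 to 56.2) in Rit1_M90I and 40.8 CPM (30.6 to 53.4) in the control. In innate lymphoid precursors it was at 13.7, 37.2 and 40.9 CPM, and in the early Gata2 and Apoe gate at 23.0, 37.7 and 32.0 CPM. The Lztr1_KO library was the lowest in each of these 3 gates, with 5 UMIs in the stem gate. Its ratio to the control in the early Gata2 and Apoe gate, given below, had an interval that held 1. Early lymphoid cells held 3.62 CPM (0.987 to 9.28) in Lztr1_KO, 16.8 CPM (12.2 to 22.5) in Rit1_M90I and 14.2 CPM (10.1 to 19.3) in the control. In erythroid progenitors, early neutrophils, monocytes, and basophils and mast cells, no library had more than 0.956 CPM. Cells with fewer than 2000 UMIs were left out of the thinned shares here and below. After each cell was thinned to 2000 UMIs, at least 1 Mycn UMI was seen in 16.7% of Lztr1_KO, 13.1% of Rit1_M90I and 13.8% of control megakaryocyte-gate cells, against 46.9%, 29.5% and 34.6% before thinning. The thinned share in early neutrophils, which serve as the background, was 0.353% in Lztr1_KO and 0.131% in Rit1_M90I. It was 0 of 865 control cells, which allows a share of up to 0.347%. In the control, the step down from the early Gata2 and Apoe gate to early lymphoid cells and the next step down to plasmacytoid dendritic cells, at 3.30 CPM, both had intervals that did not overlap.

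Max, the obligate partner of all the others, varied little among the larger gates. Over all cells it was at 52.7 CPM in Lztr1_KO, 51.5 CPM in Rit1_M90I and 56.0 CPM in the control. Among the gates with at least 100 cells in every library it lay between 43.6 CPM in control early neutrophils and 77.1 CPM in Lztr1_KO basophils and mast cells. Plasma cells were the exception, with 15.6 CPM (7.13 to 29.6) in Lztr1_KO, 13.01 CPM (8.96 to 18.3) in Rit1_M90I and 15.6 CPM (10.0 to 23.2) in the control. In the control that was the single step of the Max order with intervals apart. With immunoglobulin, joining chain and hemoglobin UMIs left out of the total, control plasma cells had 36.8 CPM of Max.

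**Figure D1:**
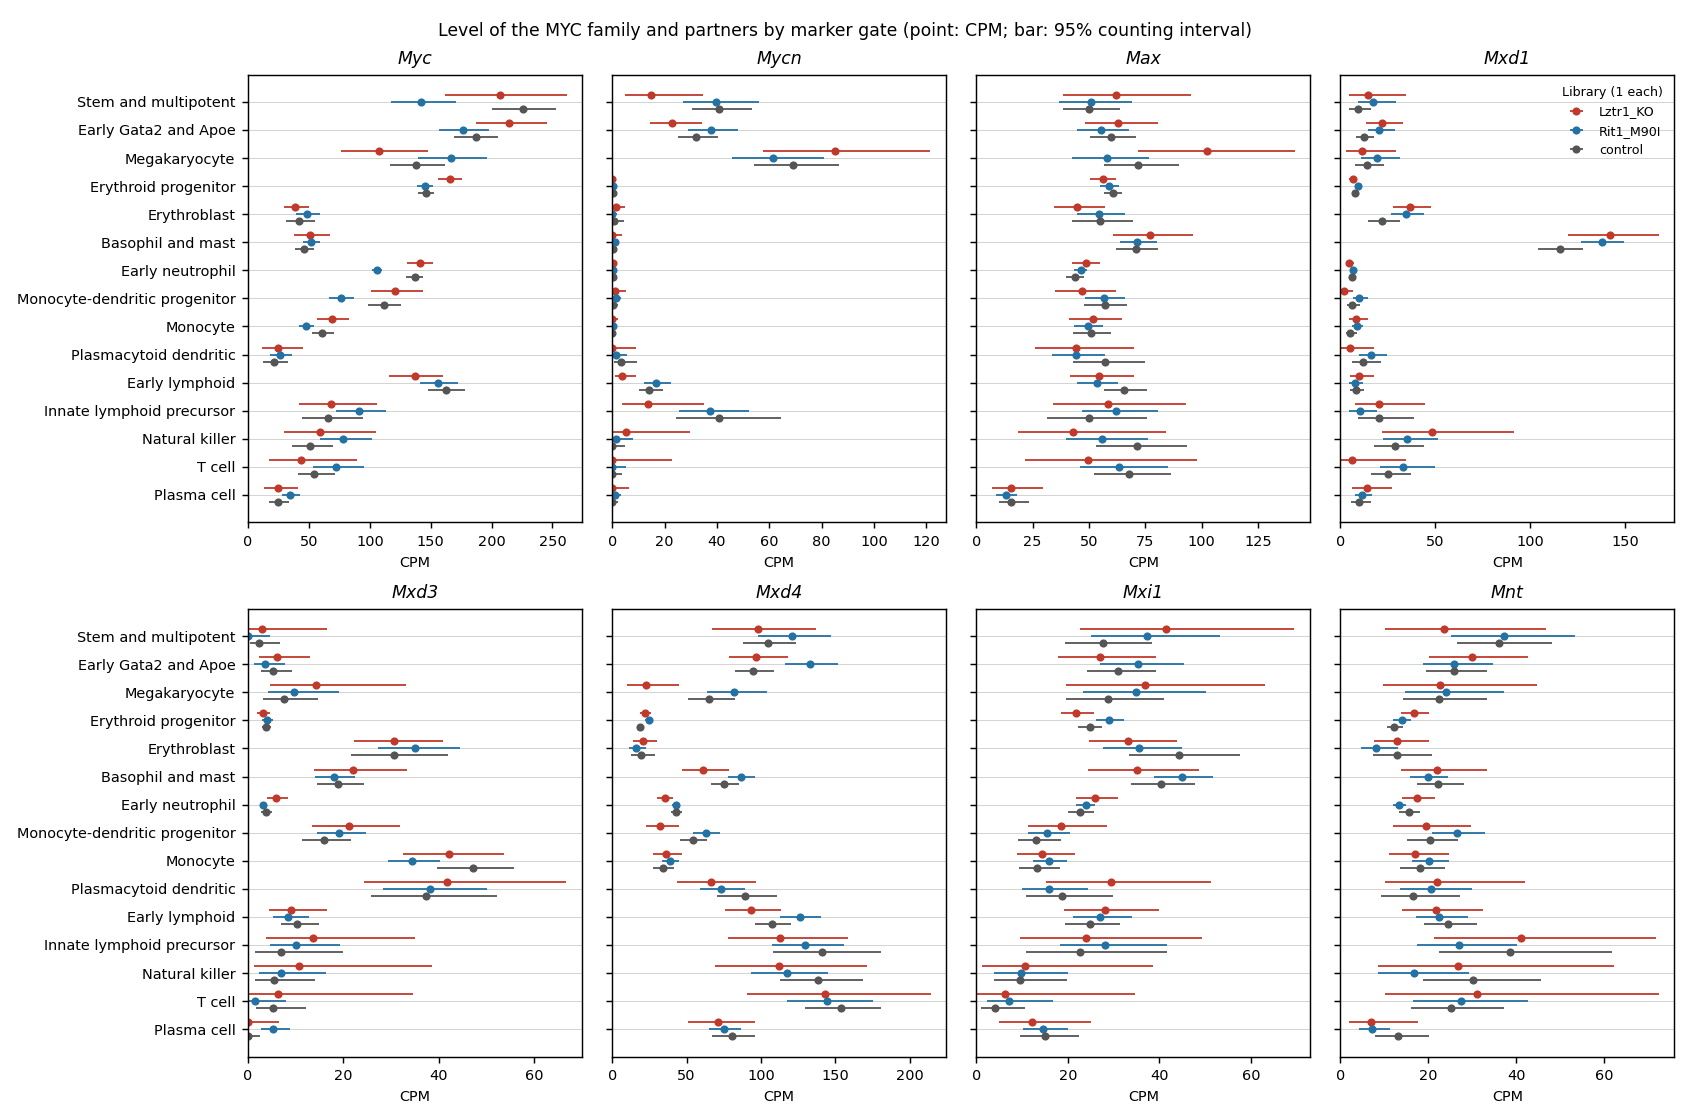
Level of each member in CPM (horizontal axis, linear) in the 15 gates with at least 30 cells in every library, for Lztr1_KO (red), Rit1_M90I (blue) and control (grey), with bars for the 95% counting interval. Myc is higher in the stem, early Gata2 and Apoe and early lymphoid gates than in monocytes, erythroblasts, plasma cells and plasmacytoid dendritic cells, Mycn is near 0 outside a few immature gates and megakaryocytes, and Mxd1 stands out in basophils and mast cells, at 142, 138 and 115 CPM. Plasma cell totals include immunoglobulin UMIs, which lower the CPM of each member there.

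Mxd1, a repressor that is known to accumulate as blood cells mature, had its highest level in basophils and mast cells. It was at 142 CPM (120 to 168) in Lztr1_KO, 138 CPM (127 to 149) in Rit1_M90I and 115 CPM (104 to 128) in the control. The next gate of at least 50 cells was at 36.6 CPM in Lztr1_KO (erythroblasts), 70.3 CPM in Rit1_M90I (macrophages) and 28.8 CPM in the control (natural killer cells), and the control intervals of that step were apart. Natural killer cells had 48.0 CPM in Lztr1_KO, 34.9 CPM in Rit1_M90I and 28.8 CPM in the control, and erythroblasts 36.6, 34.6 and 21.7 CPM. Early neutrophils, at 4.77, 6.55 and 6.34 CPM, and erythroid progenitors, at 6.53, 9.34 and 7.83 CPM, were near the bottom. Erythroblasts thus had more Mxd1 than erythroid progenitors of the same library, the reverse of Myc. In thinned basophils and mast cells a Mxd1 UMI was seen in 31.6% of Lztr1_KO (25.6 to 38.0), 22.8% of Rit1_M90I (20.2 to 25.6) and 17.0% of control cells (14.3 to 19.96). The unthinned shares were 39.8%, 33.9% and 29.4%, and the thinned shares in erythroid progenitors 2.03%, 1.52% and 1.79%.

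Mxd3 was high in monocytes, plasmacytoid dendritic cells and erythroblasts of all 3 libraries, and in Rit1_M90I also in conventional dendritic cells. Monocytes had 42.2 CPM (32.5 to 53.8) in Lztr1_KO, 34.4 CPM (29.3 to 40.2) in Rit1_M90I and 47.2 CPM (39.5 to 55.8) in the control. Plasmacytoid dendritic cells had 41.7, 38.1 and 37.4 CPM, and erythroblasts 30.5, 35.1 and 30.6 CPM. These 3 gates overlapped one another within each library. In the monocyte gate 77.3% of Lztr1_KO, 69.5% of Rit1_M90I and 69.2% of control cells were high in cell cycle genes. The shares were 62.1%, 36.4% and 52.1% in plasmacytoid dendritic cells and 98.9%, 68.1% and 90.1% in erythroblasts. The 10 early neutrophil markers summed to 6529, 7200 and 5326 CPM in the monocyte gate, so it does not hold mature monocytes alone. Conventional dendritic cells had 14.1 CPM (1.71 to 51.0) in Lztr1_KO, 40.2 CPM (21.4 to 68.8) in Rit1_M90I and 25.9 CPM (12.4 to 47.7) in the control, from 2, 13 and 10 UMIs. The stem and multipotent gate had 1 Mxd3 UMI in Lztr1_KO, 0 in Rit1_M90I and 3 in the control, and erythroid progenitors had 3.05, 4.03 and 3.75 CPM although most of them were high in cell cycle genes. The Mxd3 gene overlaps Prelid1, which lies on the opposite strand and was at 157 CPM in the control. No source used here gives the strand setting of the authors' counting, so reads of this pair are uncertain between them.

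Mxd4 was high in lymphoid gates and lowest in the erythroid branch. T cells had 143 CPM (90.5 to 214) in Lztr1_KO, 144 CPM (117 to 175) in Rit1_M90I and 154 CPM (130 to 181) in the control. Innate lymphoid precursors had 113, 130 and 141 CPM, and natural killer cells 112, 117 and 139 CPM. These gates overlapped within each library. Pro-B and pre-B cells were second in the control, at 150 CPM (112 to 197). With Leiden clusters and with doublets kept, pro-B and pre-B cells led in the control in place of T cells. With the stricter cell filter innate lymphoid precursors led. The 100 stroma and endothelium cells of Rit1_M90I were higher still, at 192 CPM. Immature cells were also high, with 97.7 CPM in Lztr1_KO, 121 CPM in Rit1_M90I and 105 CPM in the control in the stem and multipotent gate and 93.3, 126 and 108 CPM in early lymphoid cells. Mxd4 was therefore high beside Myc in stem cells and early lymphoid cells. Erythroid progenitors had 22.1, 24.5 and 18.8 CPM, and erythroblasts 21.02, 16.3 and 19.3 CPM.

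Mxi1 was high in erythroblasts and in basophils and mast cells and low in T cells. It had 33.2 CPM in Lztr1_KO, 35.6 CPM in Rit1_M90I and 44.3 CPM in the control in erythroblasts, and 35.0, 44.9 and 40.3 CPM in basophils and mast cells. T cells had little, with 6.21, 7.20 and 4.18 CPM from 1 to 5 UMIs a library. Mnt had 41.1, 27.1 and 38.6 CPM in innate lymphoid precursors, 23.7, 37.3 and 36.2 CPM in the stem and multipotent gate and 12.9, 8.14 and 12.9 CPM in erythroblasts. Neighbouring gates overlapped within counting error along the whole control order of each of Mxd3, Mxd4, Mxi1 and Mnt. The gate with the highest control level was kept under all 5 other ways of choosing and grouping cells for Myc, Mycn, Mxd1 and Mxi1. It was kept under 2 of the 5 for Max and Mxd4 and under 3 of the 5 for Mxd3 and Mnt.

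Across gates, Mxd4 and Mnt moved together, with Pearson's r of log2(CPM + 10) of 0.87 in Lztr1_KO (10 gates), 0.52 in Rit1_M90I (22 gates) and 0.77 in the control (17 gates). Mycn and Mnt had 0.78, 0.54 and 0.58, and Myc and Mycn 0.39, 0.56 and 0.50. Myc and Mxd3 ran in opposite directions, at -0.85, -0.51 and -0.35. The points of each value share a library and differ in depth, so these are descriptions. Among 5804 genes compared over the control's gates, Myc was most like Cops7a, Snhg15 and Wdr77. These had r of 0.75, 0.92 and 0.83 in Lztr1_KO, 0.68, 0.81 and 0.75 in Rit1_M90I and 0.93, 0.93 and 0.89 in the control, where they were chosen. Mycn was most like Med12l, Zfand5 and Nrgn, with 0.75, 0.75 and 0.83 in Lztr1_KO, 0.88, 0.85 and 0.85 in Rit1_M90I and 0.94, 0.91 and 0.88 in the control. Mxd1 was most like Osm, a cytokine gene, with Grina and Lilrb4a next, at 0.82, 0.92 and 0.84 in Lztr1_KO, 0.65, 0.89 and 0.82 in Rit1_M90I and 0.91, 0.89 and 0.87 in the control. Mxd3 was most like Racgap1, Cdkn3 and Mis18a, at 0.80, 0.80 and 0.64 in Lztr1_KO, 0.78, 0.72 and 0.64 in Rit1_M90I and 0.89 each in the control. The first of these acts in cytokinesis, Cdkn3 is a cell cycle phosphatase and Mis18a helps to mark centromeres. Mxd4 was most like Ptprcap, Pnrc1 and Cyfip2, at 0.89, 0.94 and 0.79 in Lztr1_KO, 0.83, 0.89 and 0.76 in Rit1_M90I and 0.93, 0.92 and 0.91 in the control. Mnt was most like Nfat5, Dtx3l and Ncoa2, at 0.73, 0.86 and 0.90 in Lztr1_KO, 0.72, 0.45 and 0.57 in Rit1_M90I and 0.93, 0.90 and 0.90 in the control. Mxi1 was most like Arpc1a, Cpne2 and Rgs12, at 0.39, 0.54 and 0.52 in Lztr1_KO, 0.54, 0.64 and 0.46 in Rit1_M90I and 0.83, 0.81 and 0.80 in the control, so its likeness was weaker outside the library where it was chosen. For Max the closest were Ncbp3, Ywhab and Smndc1, at 0.01, 0.58 and -0.14 in Lztr1_KO, 0.49, 0.79 and 0.56 in Rit1_M90I and 0.93, 0.93 and 0.92 in the control, so the likeness to Ncbp3 and Smndc1 was not seen in Lztr1_KO.

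Cells high in S phase or in G2 and M genes were then compared with cells low in both lists, within each library. Mxd4 and Mxd1 were lower in the cycling cells, while Mxd3 was nearly restricted to them. Mxd4 was at 29.3 CPM in high and 109 CPM in low cells of Lztr1_KO, at 36.6 and 116 CPM in Rit1_M90I and at 31.9 and 108 CPM in the control. The ratios of high over low cells were 0.270 (0.238 to 0.307), 0.317 (0.296 to 0.339) and 0.296 (0.273 to 0.319). Mxd1 was at 9.94 CPM in high and 44.4 CPM in low cells of Lztr1_KO, at 10.9 and 47.9 CPM in Rit1_M90I and at 8.34 and 36.2 CPM in the control. Both genes passed the limit for a call, a change of at least 1.5-fold in log2((CPM + 10)/(CPM + 10)) at a mean of at least 20 CPM, in all 3 libraries, and were the only members to do so. The share of all genes called in either direction was 33.2% in Lztr1_KO, 29.3% in Rit1_M90I and 30.7% in the control, so a call was common in this contrast. Mxd3 was at 18.5 CPM in high and 0.470 CPM in low cells of Lztr1_KO, at 19.3 and 0.974 CPM in Rit1_M90I and at 18.5 and 0.593 CPM in the control, from 2, 17 and 9 UMIs in the low cells. Its ratios were 39.4 (10.8 to 327), 19.8 (12.3 to 34.3) and 31.2 (16.4 to 68.7), at a mean below 20 CPM. Cycling cells were deeper, with medians of 15534 UMIs in Lztr1_KO, 13233 in Rit1_M90I and 11976 in the control, against 4147, 3318 and 3429 in low cells, and lay in other gates, so the contrast was repeated within gates.

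**Figure D2:**
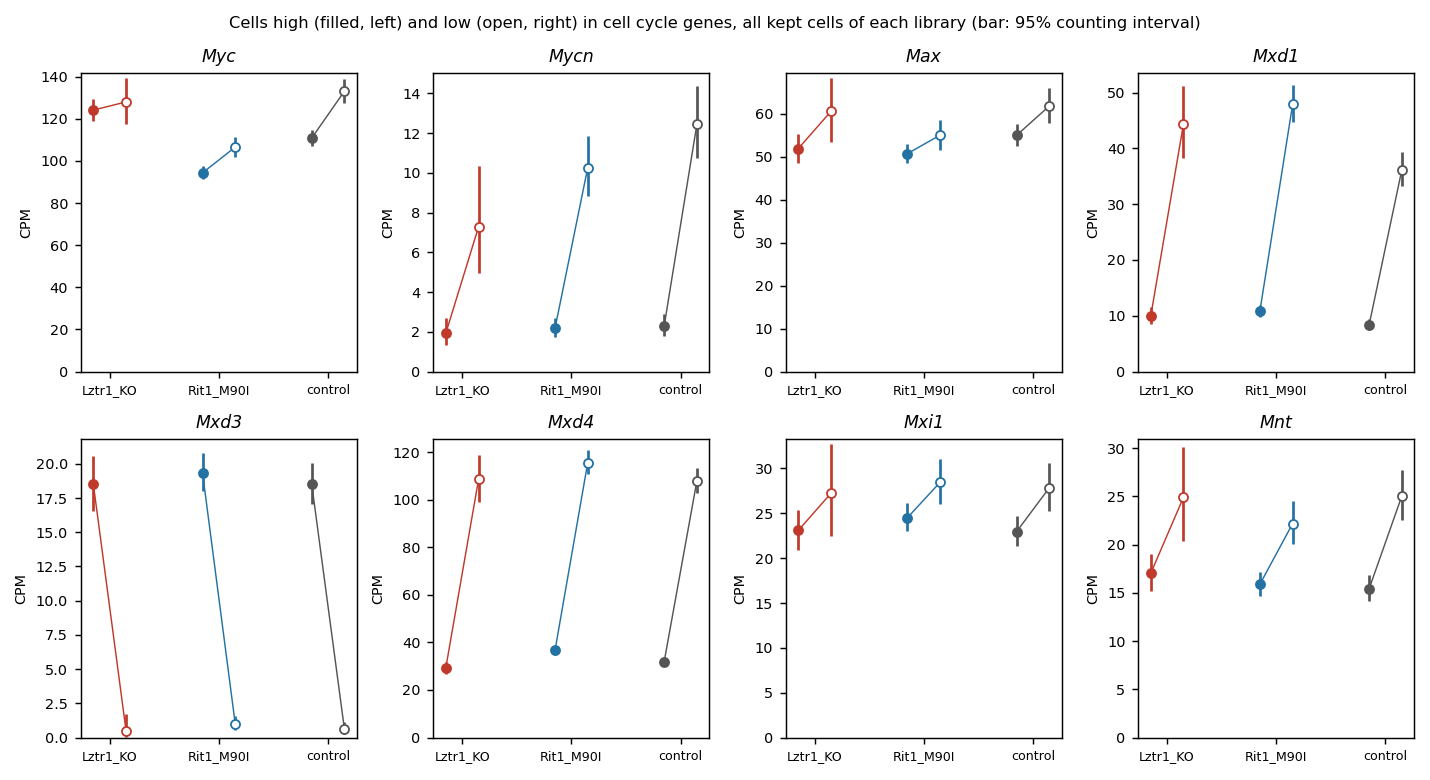
Level in CPM (vertical axis, linear from 0) of each member in cells high in cell cycle genes (filled, left) and low in them (open, right), over all kept cells of each library, with 95% counting intervals. Mxd4 and Mxd1 are lower in the high cells of all 3 libraries, Mxd3 is nearly absent from the low cells, and Max and Mxi1 move little.

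Within gates that held at least 50 cells of each kind, there were 11 combinations of gate and library, from 7 gates of Rit1_M90I and the control and none of Lztr1_KO. Mxd4 was lower in the high cells in 11 of 11, each with an interval below 1, with ratios from 0.181 (0.132 to 0.252) in control erythroid progenitors to 0.548 (0.440 to 0.686) in Rit1_M90I early neutrophils. Mxd3 was higher in 11 of 11, with 9 intervals above 1. In basophils and mast cells it was at 71.2 CPM in high and 0.353 CPM in low cells of Rit1_M90I and at 63.7 and 1.49 CPM in the control, from 1 and 3 UMIs in the low cells. Those cycling basophils and mast cells had the highest Mxd3 after the 88 cycling plasmacytoid dendritic cells of Rit1_M90I, at 82.0 CPM against 0 UMIs in 98 low cells, which is at least 11.7-fold higher on a floor of 3 UMIs. Erythroid progenitors stayed low in both kinds of cell, at 4.74 CPM in high and 1.88 CPM in low cells of Rit1_M90I and 4.31 CPM in high cells and 0 UMIs in 65 low cells of the control, where the floor of 3 UMIs is 4.98 CPM. Mxd1 was lower in the high cells in 9 of 11, with 3 intervals below 1. These were basophils and mast cells of both libraries and control early neutrophils, the latter at 3.66 CPM in high and 9.80 CPM in low cells. In erythroid progenitors Mxd1 had ratios of 1.30 (0.492 to 4.87) in Rit1_M90I and 2.50 (0.674 to 20.9) in the control, both holding 1. In basophils and mast cells it was at 62.3 CPM in high and 173 CPM in low cells of Rit1_M90I, a ratio of 0.361 (0.273 to 0.470), and at 43.2 and 160 CPM in the control, a ratio of 0.271 (0.188 to 0.380). Myc was lower in the high cells in 10 of 11, with 5 intervals below 1. In erythroid progenitors Myc was at 135 CPM in high and 252 CPM in low cells of Rit1_M90I and at 138 and 222 CPM in the control, with ratios of 0.535 (0.448 to 0.644) and 0.623 (0.522 to 0.748). Mnt was lower in 11 of 11, with 1 interval below 1. Under the 5 other ways of choosing and grouping cells, Mxd4 was lower in every combination of gate and library, and Mxd3 was higher in all but 1 of 17 with Leiden clusters.

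The cell cycle lists also split cells by phase. This split pooled the gates of each library and was not repeated within gates. Mxd3 was at 5.26 CPM in Lztr1_KO, 5.43 CPM in Rit1_M90I and 5.71 CPM in the control among cells high in S phase genes alone. Among cells high in G2 and M genes alone it was at 28.2, 28.3 and 30.1 CPM, and among cells high in both at 31.5, 35.4 and 26.5 CPM. Most of the Mxd3 in cycling cells was thus in those with G2 and M genes, in all 3 libraries. Prelid1, its overlapping neighbour, was at 151, 172 and 166 CPM in S phase cells and 162, 186 and 176 CPM in G2 and M cells, and at 116, 124 and 123 CPM in low cells, a much flatter course. Myc had its lowest level in the cells high in both lists, at 62.5 CPM in Lztr1_KO, 61.1 CPM in Rit1_M90I and 81.6 CPM in the control, against 150, 114 and 124 CPM in cells high in S phase genes alone. Mxd4 was likewise lowest in cells high in both lists, at 18.9, 21.2 and 19.95 CPM. Of the erythroblasts, 98.9% in Lztr1_KO, 68.1% in Rit1_M90I and 90.1% in the control were high in cycle genes. In the control they had 41.8 CPM of Myc and 19.3 CPM of Mxd4. The part of the make-up by gate in the levels by phase was not tested.

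**Figure D3:**
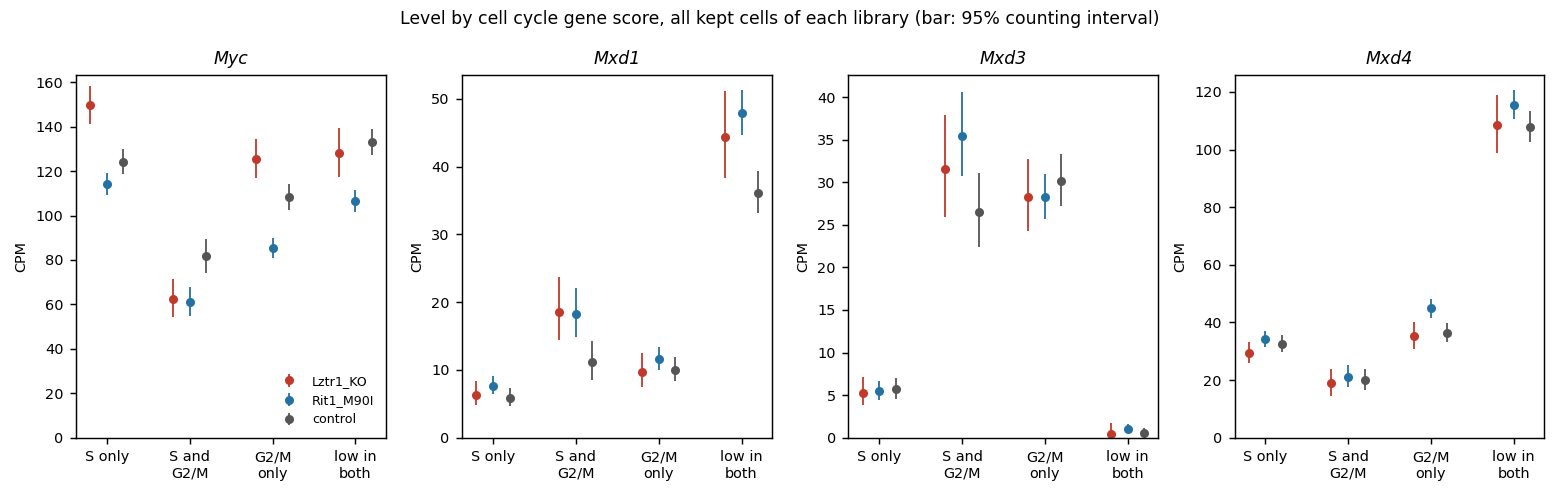
Level in CPM (vertical axis, linear from 0) of Myc, Mxd1, Mxd3 and Mxd4 by cell cycle genes, over all kept cells of Lztr1_KO (red), Rit1_M90I (blue) and control (grey), with 95% counting intervals. Mxd3 is at about 5 CPM in S phase cells and 26.5 to 35.4 CPM in both groups of cells with G2 and M genes, and Mxd4 is above 100 CPM in cells low in both lists.

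Between Lztr1_KO and the control, most members had ratios whose intervals held 1, and Mycn in the stem and multipotent gate was the only call. Mycn had 5 UMIs in 42 Lztr1_KO cells, at 14.8 CPM, and 53 UMIs in 210 control cells, at 40.8 CPM, a ratio of 0.363 (0.113 to 0.901) and a log2 change of -1.03. After thinning, a Mycn UMI was seen in 0 of 42 Lztr1_KO cells, which allows a share of up to 7.14%, and in 7.21% of control cells, against 9.52% and 16.7% before thinning. Over the 7 gates, 36 pairs of a member and a gate reached 20 CPM, and 0 were called higher and 1 lower, or 2.78% against 2.42% of all pairs of a gene and a gate. The share of all genes called was 10.5% in the stem and multipotent gate, 1.08% in early lymphoid cells, 0.76% in monocytes, 0.53% in early neutrophils, 1.59% in the early Gata2 and Apoe gate, 0.223% in erythroid progenitors and 1.22% in basophils and mast cells. The members were therefore called about as often as other genes, and the called pair sits in the smallest gate. Mycn was also lower in early lymphoid cells, at 3.62 against 14.2 CPM, a ratio of 0.255 (0.0663 to 0.706) from 4 and 40 UMIs, below the level needed for a call. In the early Gata2 and Apoe gate the ratio was 0.718 (0.429 to 1.16), and in the megakaryocyte gate 1.23 (0.779 to 1.91), neither apart from 1. Over all cells Mycn was at 3.11 CPM in Lztr1_KO, 4.01 CPM in Rit1_M90I and 5.24 CPM in the control, with ratios to the control of 0.594 (0.463 to 0.756) and 0.766 (0.654 to 0.896), which also move with the make-up of the libraries. The 8 markers of the early Gata2 and Apoe gate, where Mycn is also present, summed to 797 CPM in Lztr1_KO, 1211 CPM in Rit1_M90I and 1176 CPM in the control within the stem gate. Their part in the Mycn value was not tested. With Leiden clusters in place of gates Mycn in the stem group was at 8.53 CPM in Lztr1_KO and 21.9 CPM in the control, a ratio of 0.390 (0.179 to 0.760), with a mean under 20 CPM and so no call. Among the 10 Lztr1_KO and 35 control stem-gate cells high in cycle genes the call was also lost, with a ratio of 0.705 (0.0143 to 7.12).

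Of the other members, Myc in erythroid progenitors was at 166 CPM in Lztr1_KO and 146 CPM in the control, a ratio of 1.14 (1.06 to 1.22) and short of 1.5-fold. Its ratio over all cells was 1.03 (0.993 to 1.07). Mnt in erythroid progenitors had 1.37 (1.08 to 1.74), at 16.8 and 12.3 CPM. Mxd4 over all cells had 0.835 (0.782 to 0.891), with 46.5% of Lztr1_KO, 30.6% of Rit1_M90I and 33.5% of control cells high in cycle genes, in which Mxd4 was low in every library. Apart by cycle genes, Mxd4 was at 29.3 CPM in Lztr1_KO and 31.9 CPM in the control among high cells and at 109 and 108 CPM among low cells. In early neutrophils, where 142 of 284 Lztr1_KO and 267 of 867 control cells were high, the Mxd4 ratio was 0.816 (0.683 to 0.972). Among the high cells of that gate it was 0.884 (0.663 to 1.17), and among its low cells 0.877 (0.485 to 1.49). Of the 7 gates, basophils and mast cells alone had an interval apart from 1 among low cells, with 0.683 (0.469 to 0.970). The part of the cell cycle in these Mxd4 values was not tested. Outside the 7 gates, Mxd4 was at 22.7 CPM in Lztr1_KO and 65.2 CPM in the control in the megakaryocyte gate, from 8 and 70 UMIs, a ratio of 0.348 (0.145 to 0.724). It was at 32.3 and 54.1 CPM in monocyte-dendritic progenitors, a ratio of 0.597 (0.400 to 0.871).

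Between Rit1_M90I and the control, Myc had an interval below 1 in 3 of the 7 gates, the stem and multipotent gate, early neutrophils and monocytes. In the stem and multipotent gate it had 114 UMIs in 156 Rit1_M90I cells, at 142 CPM, and 293 UMIs in 210 control cells, at 226 CPM, a ratio of 0.629 (0.502 to 0.783) and a log2 change of -0.63. This pair was called lower, 0 pairs were called higher, and 35 pairs reached 20 CPM, so 2.86% were called against 1.07% of all pairs of a gene and a gate, a difference that rests on this single pair. The share of all genes called was 3.72% in the stem and multipotent gate, 0.652% in early lymphoid cells, 0.897% in monocytes, 0.354% in early neutrophils, 0.8% in the early Gata2 and Apoe gate, 0.241% in erythroid progenitors and 0.424% in basophils and mast cells. After thinning, a Myc UMI was seen in 18.6% of Rit1_M90I (12.6 to 25.9) and 32.2% of control stem-gate cells (25.9 to 39.0), against 38.5% and 59.5% before thinning. The call was lost when cells took their highest score alone, with a ratio of 0.709 (0.599 to 0.839), and with Leiden clusters, with 0.784 (0.701 to 0.877), and both intervals stayed below 1. Among stem-gate cells low in cycle genes the ratio was 0.633 (0.481 to 0.827). The 10 plasma cell markers summed to 925 CPM in the Rit1_M90I and 363 CPM in the control stem gate. That sum was higher in Rit1_M90I than in the control in each of the 7 gates. It was at 569 against 331 CPM in early lymphoid cells and 288 against 185 CPM in erythroid progenitors, where the Myc interval held 1. In monocytes, where the Myc interval lay below 1, it was at 507 against 315 CPM. In the stem gate 11.5% of Rit1_M90I and 16.7% of control cells were high in cycle genes. The part of these markers and of the cell cycle in the Myc value was not tested.

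Early neutrophils had 106 CPM of Myc (102 to 110) in Rit1_M90I and 137 CPM (130 to 144) in the control, a ratio of 0.774 (0.725 to 0.826) from 2297 and 1533 UMIs. Monocytes had a ratio of 0.784 (0.640 to 0.962) and monocyte-dendritic progenitors 0.686 (0.573 to 0.819). None of these 3 reached 1.5-fold. Under the 5 other ways of choosing and grouping cells, the early neutrophil ratio lay between 0.754 and 0.780. It was 0.661 (0.548 to 0.796) in early neutrophils low in cycle genes and 0.822 (0.735 to 0.921) in those high in them. The 12 late neutrophil markers summed to 469 CPM in the Rit1_M90I and 344 CPM in the control early neutrophil gate, and their part was not tested. Erythroid progenitors, at 0.993 (0.933 to 1.06), and early lymphoid cells, at 0.962 (0.840 to 1.10), had intervals that held 1, as did basophils and mast cells, at 1.13 (0.911 to 1.40), and the early Gata2 and Apoe gate, at 0.945 (0.812 to 1.10). Split by cycle genes, basophils and mast cells had a ratio of 0.696 (0.423 to 1.14) in high cells and 1.32 (1.01 to 1.72) in low cells. The early Gata2 and Apoe gate ran the other way, with 1.43 (1.02 to 1.995) in high cells and 0.795 (0.660 to 0.955) in low cells. None of the whole-gate Myc ratios given here thus had an interval above 1. In the early Gata2 and Apoe gate the high and low cells lay on opposite sides of 1, with both intervals apart from 1. In basophils and mast cells the interval of the low cells was above 1 and that of the high cells held 1. That the ratio differs between gates was not tested. Over all cells the ratio was 0.828 (0.803 to 0.854), a value that also moves with the make-up of the library, and in ungated cells it was 0.797 (0.746 to 0.851).

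Mxd4 was above the control in some early gates of Rit1_M90I, without a call. The ratio was 1.40 (1.16 to 1.70) in the early Gata2 and Apoe gate, at 133 and 94.98 CPM, 1.30 (1.10 to 1.54) in erythroid progenitors and 1.17 (0.9996 to 1.37), an interval that holds 1, in early lymphoid cells. Mxd1 in basophils and mast cells had ratios to the control of 1.23 (1.01 to 1.497) in Lztr1_KO and 1.19 (1.05 to 1.36) in Rit1_M90I, and in erythroblasts of 1.69 (1.04 to 2.78) and 1.59 (1.01 to 2.59). Both mutant comparisons use the same control library, so their like direction is not independent. Mycn in the stem and multipotent gate had a Rit1_M90I ratio of 0.976 (0.609 to 1.54). Mxd3 in monocytes was at 34.4 CPM in Rit1_M90I and 47.2 CPM in the control, a ratio of 0.730 (0.577 to 0.925). Max, Mxi1 and Mnt had intervals that held 1 in each of the 7 gates, except Mxi1 in erythroid progenitors, with 1.17 (1.01 to 1.36). Set against Rit1_M90I, which also carries Cre, Lztr1_KO had 0 pairs called higher and 1 lower among 36, with 3.31% of all pairs of a gene and a gate called. That pair was again Mycn in the stem and multipotent gate, with a ratio of 0.372 (0.113 to 0.961). Myc there had 1.46 (1.07 to 1.98), and 1.33 (1.22 to 1.45) in early neutrophils.

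**Figure D4:**
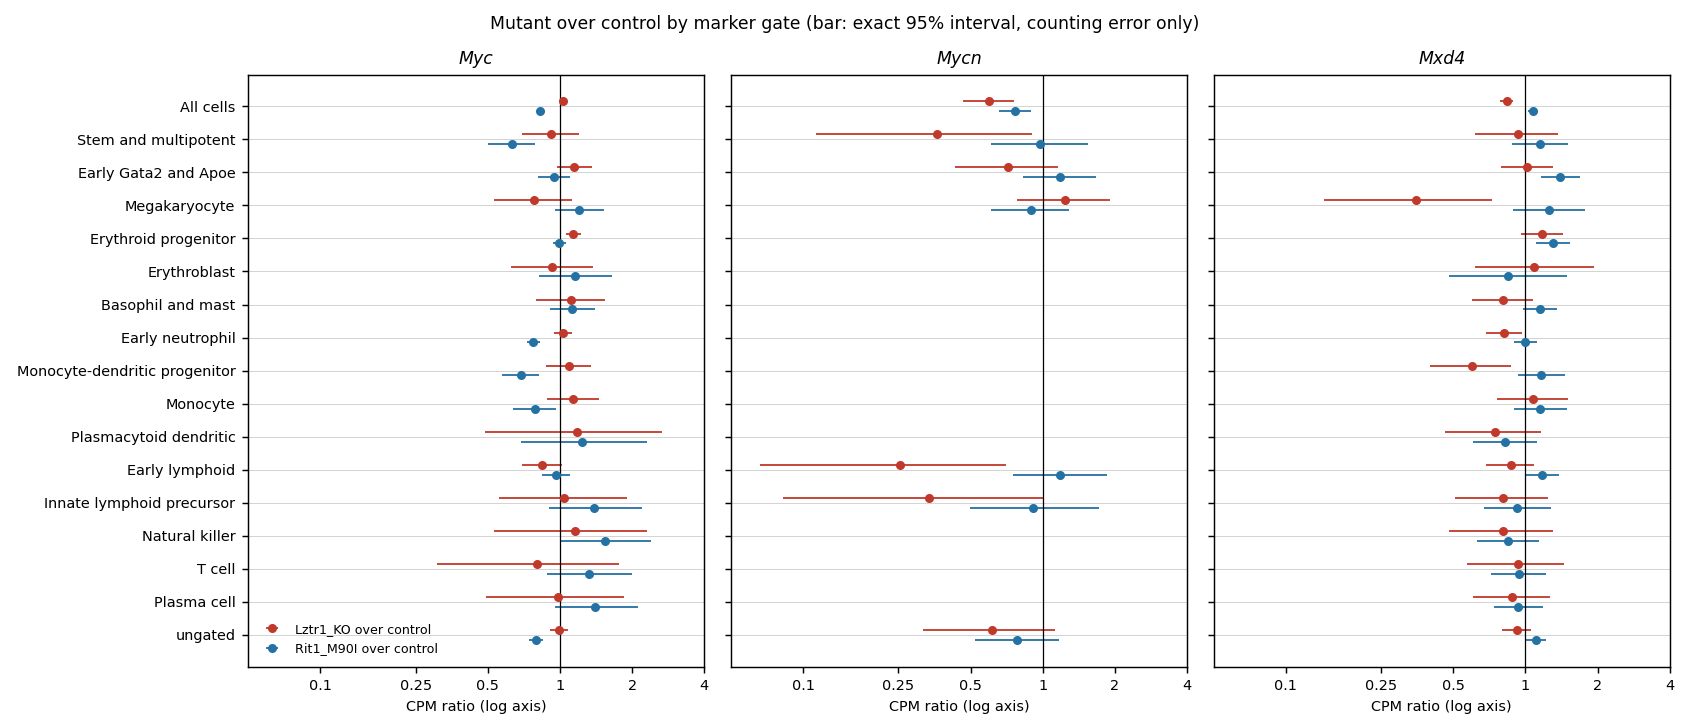
Ratio of CPM to the control (horizontal log axis) for Myc, Mycn and Mxd4 over all cells, in 15 gates and in ungated cells, for Lztr1_KO (red) and Rit1_M90I (blue), with exact 95% counting intervals, drawn where the mutant had at least 1 UMI and the control at least 10. The Rit1_M90I intervals of Myc lie below 1 in stem, early neutrophil, monocyte-dendritic and monocyte gates, in ungated cells and over all cells, and those of Mycn in Lztr1_KO lie below 1 in stem and early lymphoid gates and over all cells.

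A list of 30 MYC target genes, mostly for ribosome production, nucleotide synthesis and glycolysis, was set beside the members. Across gates its mean level had r of 0.66 with Myc in Lztr1_KO (10 gates), 0.62 in Rit1_M90I (22 gates) and 0.68 in the control (17 gates), as a description over gates of 1 library each. Mycn had -0.02, 0.16 and 0.24 with the same list, and Mxd4 -0.50, -0.38 and -0.48. Erythroid progenitors had the highest summed level, at 14204 CPM in Lztr1_KO, 13427 CPM in Rit1_M90I and 14463 CPM in the control, although Myc was higher in the stem gate, where the sum was 8048, 6479 and 7182 CPM. Between libraries few targets passed the limit for a call. In the stem and multipotent gate of Lztr1_KO 26 of 30 had a positive log2 change, with a median of 0.18 against 0.03 for all genes tested, and 1 was called higher, Rrp12, a ribosome assembly gene, at 35.5 against 9.24 CPM. S phase genes moved in the same gate, with 23 of 26 positive, a median of 0.39 and 9 called higher. Of all genes tested in that gate, 5.75% were called higher. In early neutrophils of Lztr1_KO 28 of 29 targets were positive, with a median of 0.17 against 0.07 and 0 called. There 32 of 32 tested G2 and M genes were positive with a median of 0.33, and 22 of 26 S phase genes with a median of 0.15, and 142 of 284 Lztr1_KO and 267 of 867 control cells were high in cycle genes. The part of the cell cycle in the target lists was not tested. Erythroid progenitors, where Myc had a ratio above 1, had 10 of 30 positive and a median of -0.04.

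In Rit1_M90I the median log2 change of the list was below 0 in 5 of the 7 gates. The median of all genes tested was below 0 in each of the 7, between -0.05 and -0.01. In the stem and multipotent gate 5 of 28 tested targets had a positive log2 change, with a median of -0.17 against -0.01 for all genes, and 2 were called lower. These were Srm, spermidine synthase, at 63.5 against 116 CPM, and Bop1, a ribosome assembly gene, at 14.9 against 35.4 CPM. Of all genes tested in that gate, 1.82% were called lower. In the early Gata2 and Apoe gate 3 of 29 targets were positive with a median of -0.18, and in erythroid progenitors 2 of 30 with -0.14, and none was called in either gate. Early neutrophils, where Myc had a ratio of 0.774, had 17 of 29 positive and a median of 0.04. The 1 call there was Tfrc, the transferrin receptor, at 90.5 CPM in Rit1_M90I and 35.0 CPM in the control, a ratio of 2.58 (2.32 to 2.89). Of all genes tested there, 0.137% were called higher. The S phase genes had a median of -0.16 in the stem gate and -0.20 in the early Gata2 and Apoe gate. In each, 6 of 25 were positive. Their medians were -0.01 in erythroid progenitors and 0.05 in early neutrophils. The part of the cell cycle in the target list was not tested. In monocytes 6 of 28 targets were positive with a median of -0.11, and in early lymphoid cells 4 of 28 with -0.13. Both the list's median and the Myc interval thus lay on the lower side in the stem gate and monocytes of Rit1_M90I. In early lymphoid cells, the early Gata2 and Apoe gate and erythroid progenitors the list's median was below 0 while the Myc interval held 1. In early neutrophils Myc was lower and the list's median was not.

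Among 20 other factors of the MYC network, such as cofactors, ubiquitin ligases and further MAX or MLX partners, 16 were tested in the stem and multipotent gate of Lztr1_KO and 2 were called higher. These were Mlx, the partner of MondoA, at 32.6 against 16.2 CPM, and Fbxw7, a ubiquitin ligase subunit that marks MYC for breakdown, at 41.5 against 23.9 CPM, and both intervals held 1. Of all genes tested in that gate, 5.75% were called higher. Kat5, an acetyltransferase, was called lower in the early Gata2 and Apoe gate, at 16.0 against 30.2 CPM, and Ruvbl2, a chromatin ATPase, in basophils and mast cells, at 19.0 against 34.5 CPM. Of all genes, 0.753% were called lower in the former gate and 0.594% in the latter. None of the factors was called in the 7 gates between Rit1_M90I and the control. Txnip, a MondoA and MLX target that restrains glucose uptake, was at 222 CPM in Lztr1_KO and 439 CPM in the control stem gate, a called ratio of 0.506 (0.392 to 0.645). Its Rit1_M90I level there was 426 CPM, a ratio of 0.970 (0.845 to 1.11). Of all genes tested in the stem gate between Lztr1_KO and the control, 4.79% were called lower. Over all cells Txnip had 109 CPM in Lztr1_KO and 170 CPM in the control, a ratio of 0.643 (0.617 to 0.669).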

How the data were processed

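Single-cell RNA sequencing of sorted marrow gave 1 library per genotype. The deposited values are raw UMI counts per gene and cell, made by the authors with Cell Ranger 6.1.1 per the file headers. Seurat 4.1.0 and mm10 are named per the submitters' processing notes, and no source used here gives the strand setting. Cells with at least 1000 UMIs, at least 500 genes and at most 10% mitochondrial UMIs were kept, and doublets called by Scrublet were removed (84 in Lztr1_KO, 450 in Rit1_M90I and 250 in the control) with scanpy 1.11.5 (Python 3.11.15, numpy 2.4.6, scipy 1.17.1). Library totals were 30398349, 88560148 and 67541728 UMIs in the same order. A cell entered the gate of its highest marker score (mean z of log1p counts per 10000) where that score was at least 0.5 and led by 0.25. Counts were summed per gate and library, with exact Poisson intervals for CPM and exact conditional intervals for ratios. Cells high in cycle genes had an S phase or a G2 and M score of at least 0.5, and low cells had both at or below 0. A call needed a 1.5-fold change in CPM + 10 at a mean of 20 CPM, in the 6 gates with at least 100 cells in every library and, as an addition, the stem and multipotent gate. TMM factors came from edgeR 4.0.16 (R 4.3.3), and the calculation was tested on simulated data. The genes named were the 8 members, the called pairs, the listed genes with the largest and smallest changes and the closest genes by correlation. Names and coordinates were matched to GENCODE M21 for 32235 of 32285 IDs, and promoters to RefSeq. The members, lists and tests were chosen with earlier results of these data known.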

Additional observations from a re-analysis of the deposited data

How the results depend on the processing

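No paired analysis was possible because the labels give no replicate numbers and each genotype has 1 library, so leaving out a replicate was not possible either. The 1 member and gate pair called between Lztr1_KO and the control became 2 with a pseudocount of 1 CPM (adding Mnt in the stem gate), 2 with no filter on low values (adding Mycn in early lymphoid cells), 3 with the stricter cell filter (adding Mnt in the stem gate and Mxd1 in basophils and mast cells) and 2 in cells low in cycle genes (adding Max in monocytes). That Max pair was called higher from 3 UMIs in 5 Lztr1_KO cells and 10 UMIs in 34 control cells. Its ratio was 1.77 (0.312 to 6.86), an interval that holds 1. The count remained 1 with TMM factors, a stricter gate, the highest score alone and doublets kept, each time Mycn in the stem gate. With Leiden clusters it was 1 other pair, Mxd4 in monocytes, and in cells high in cycle genes Mxi1 higher in the stem gate, without Mycn. The 1 pair between Rit1_M90I and the control became 2 under the stricter gate, 0 with the highest score alone, 2 in cells low in cycle genes and 3 in cells high in them. These 3 were Mxi1 lower in the stem gate and Mycn and Mxd4 higher in the early Gata2 and Apoe gate, without Myc in the stem gate. With Leiden clusters it was Mxd4 in monocytes and not Myc in the stem gate. The 6 calls between cells high and low in cycle genes became 10 when a score of at least 1 was required. The splits by cycle genes and the totals without immunoglobulin and hemoglobin UMIs were chosen after seeing the data. The cause of these changes was not tested. Neither pair called with the main settings was called in the opposite direction under any of these alternatives. Mxi1 in the stem gate, called in neither comparison with the main settings, was called higher in Rit1_M90I under the stricter gate, at 44.9 against 21.9 CPM, and lower in cells high in cycle genes, at 13.6 against 31.7 CPM. Depth limits the Mycn value of the Lztr1_KO stem gate, which rests on 5 UMIs.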

Other observations

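Mycl, the third MYC gene and not among the 8 followed, was highest in dendritic cells. It was at 34.3 CPM in Lztr1_KO, 45.7 CPM in Rit1_M90I and 37.4 CPM in the control in plasmacytoid dendritic cells, where Myc was low, and at 35.3, 30.9 and 36.3 CPM in conventional dendritic cells. Monocytes had 22.1, 11.7 and 17.1 CPM, and all cells together 3.95, 4.23 and 4.45 CPM. Pim1, a kinase that acts with MYC, was at 79.0 CPM in Lztr1_KO and 104 CPM in the control over all cells, without a call. Txnip was also lower in the early Gata2 and Apoe gate of Lztr1_KO, at 339 against 510 CPM, a ratio of 0.666 (0.588 to 0.752) that missed the limit for a call. Of the 26 S phase genes, 9 were called higher in the stem and multipotent gate of Lztr1_KO, in which 23.8% of Lztr1_KO, 11.5% of Rit1_M90I and 16.7% of control cells were high in cycle genes. Of all genes tested in that gate, 5.75% were called higher.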
